A study of Mus musculus with 8 samples.

Results

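The SV2 family holds 3 genes, Sv2a, Sv2b and Sv2c, which encode glycoproteins of the synaptic vesicle membrane. All non-control probes named for these genes on a 2-colour Agilent mouse array were taken, 5 of 39429 probes: 1 for Sv2a, 1 for Sv2b and 3 for Sv2c. The family was taken up because an earlier fit of these samples had shown lower Sv2c in heterozygous samples, mainly in the dye Cy5. The genotype differences below are therefore descriptions, given with their standard errors (SE) and no test. The samples were striatal RNA from adult females of strain C57Bl/6J, 4 wildtype and 4 Brd2+/-, the latter carrying 1 intact copy of Brd2 and 1 copy with a gene-trap insertion. Brd2 encodes a BET bromodomain protein that binds acetylated histones. Both genotypes came from crosses of heterozygous parents on a repeatedly backcrossed C57Bl/6J background, and the labels name no other allele or treatment. No source used here says whether a sample was 1 animal or a pool, and the spread below is that between these samples. Beside striatum, the tissue tag gives the prefrontal cortex.

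SV2 proteins resemble sugar and drug transporters of the major facilitator superfamily, bind the calcium sensor synaptotagmin and help set the readiness of vesicles for calcium-triggered release. Botulinum neurotoxin A enters neurons through them. Sv2a is made by most neurons of the brain and is the binding site of the antiepileptic drug levetiracetam. Sv2b is most abundant in forebrain neurons, many of them glutamatergic. Sv2c is concentrated in the basal ganglia, including striatum, pallidum and substantia nigra.

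The array reads each gene through oligonucleotides of 60 bases. The first 30 bases of each are shown, since the 3 Sv2c probes read different stretches of its transcript and did not behave alike. Coordinates are mm9, as the array files give them, and the transcript base is where the probe starts in the array's annotation.
Sv2a probe A_52_P202142, chr3:95998499-95998558, plus strand, transcript base 3312: aggggtaccactctactgtctaatataagc
Sv2b probe A_52_P313185, chr7:82260188-82260247, minus strand, transcript base 5056: ttctacattacatttatggctccttaacct
Sv2c probe A_55_P2131168, chr13:96745986-96746045, minus strand, transcript base 2128: aatccatgatgataggcatgctgtgcttgt
Sv2c probe A_55_P2131163, chr13:96729701-96729761, minus strand, transcript base 3806: tctttgattaacataaaccattaatccact
Sv2c probe A_55_P2187171, chr13:96729454-96729513, minus strand, transcript base 4136: ctgtttctcatccctgggaaacaaatctgt
The last 2 probes lie close together near the 3′ end of Sv2c and are called the 3806 and the 4136 probe below. The 2128 probe lies upstream. Bases 2128 and 4136 count along 1 transcript record of Sv2c and base 3806 along another, so the 3 are not on 1 scale.

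Cy3 marked replicates 1 and 3 in both genotypes, and Cy5 marked replicates 2 and 4. Each of the 4 arrays took a Cy3 and a Cy5 sample of 1 genotype, so a genotype is compared within a dye and the dyes are then averaged, as the design text describes. Spots well above background made up 37.7% to 47.6% of all spots in Cy3 and 65.9% to 75.5% in Cy5. Negative control spots had a median intensity of 244 to 261 in Cy3 and 63.3 to 66.6 in Cy5. Both heterozygous Cy5 samples were brighter as a whole than the wildtype ones, with median spot intensities of 359 and 321 against 212 and 235. Brd2 measured 12.64 to 13.10 in wildtype samples on the normalized log2 scale. It measured 11.92, 11.83 and 11.70 in heterozygous replicates 1, 2 and 4 and 12.57 in the library labelled heterozygous replicate 3, whose label is therefore in doubt. The Brd2 difference over both dyes was -0.85 (SE 0.19, limma adjusted p = 0.39). The SV2 differences and the medians of the vesicle gene lists are given without it too, marker levels are given by sample, and differences of other single genes include it.

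Sv2c was low in 2 of the 4 heterozygous samples, both marked with Cy5, and nearer to wildtype in the other 2, both marked with Cy3. No sample was read in both dyes, so a difference between dyes and one between samples cannot be told apart. Before normalization, the spot of the 4136 probe had a mean intensity of 1642 and 2014 in the wildtype Cy5 samples. It had 247 in heterozygous replicate 2 and 208 in heterozygous replicate 4. These 2 spots were still called well above background by the scanner software, as that probe was in all 8 samples. In Cy3 the same spot had 1291 and 1632 in wildtype, 1268 in heterozygous replicate 1 and 806 in the library labelled heterozygous replicate 3. The Sv2a spot went the other way in Cy5, where wildtype had 6270 and 8411 and the heterozygous samples 17406 and 17016. The heterozygous Cy5 samples were brighter as a whole, and after normalization their Sv2a level was 1.37-fold that of wildtype.

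**Figure D1:**
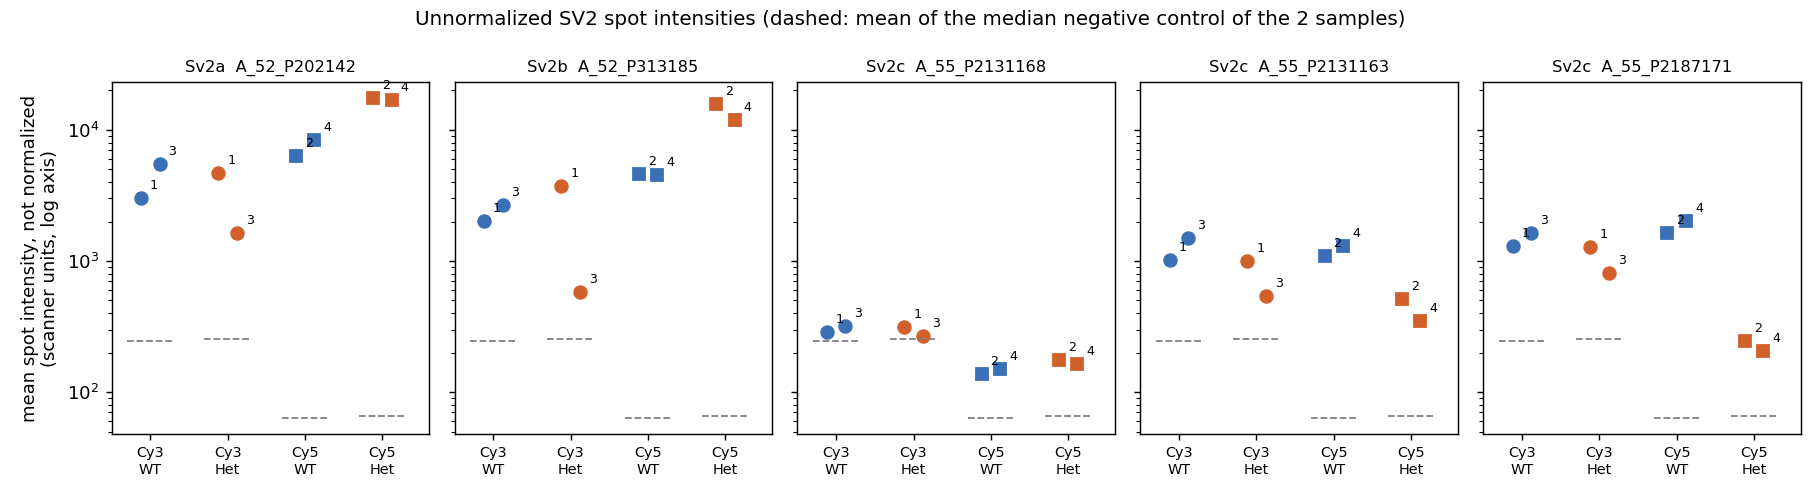
Mean spot intensity before normalization (vertical log axis, scanner units) of the 5 SV2 probes, by dye and genotype (WT wildtype, blue; Het heterozygous, orange; circles Cy3, squares Cy5; numbers are replicates). Dashed lines mark the negative control level of each dye and genotype. The 4136 probe of Sv2c (A_55_P2187171) stands at 247 and 208 in the heterozygous Cy5 samples and at 1642 and 2014 in the wildtype ones.

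After normalization the 4136 probe measured 10.61 and 10.68 on the log2 scale in wildtype Cy5 samples, and 7.19 and 7.11 in heterozygous replicates 2 and 4. In Cy3 it measured 10.84 and 10.71 in wildtype and 10.32 and 10.37 in heterozygous replicates 1 and 3. The heterozygous samples thus lay below the wildtype ones in each dye without overlap, by little in Cy3 and by much in Cy5. In Cy3 this separation was absent from the scanner software's processed signals, which were 987 and 991 in wildtype and 879 and 1136 in heterozygous replicates 1 and 3, and the Cy3 difference was -0.081 (SE 0.26) with those. The difference, heterozygous minus wildtype, was -3.49 (SE 0.14, n = 2 per genotype) in Cy5, where the heterozygous level was 8.87% of wildtype. It was -0.43 (SE 0.14, n = 2 per genotype) in Cy3, or 74.2% of wildtype, and -0.47 without the library labelled heterozygous replicate 3. The 2 differences were apart by -3.06 (SE 0.19), and dye and sample cannot be told apart as its source. In tissue RNA such as this, fewer cells that make Sv2c and less Sv2c RNA per cell cannot be told apart.

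The 3806 probe, which reads a cDNA annotated to Sv2c (AK173092), was likewise lowest in heterozygous replicates 2 and 4. In Cy5 it measured 10.07 in both wildtype samples, and 8.11 and 7.83 in heterozygous replicates 2 and 4. In Cy3 it measured 10.43 and 10.56 in wildtype and 9.98 and 9.67 in heterozygous replicates 1 and 3. Its difference was -2.10 (SE 0.17) in Cy5, where the heterozygous level was 23.4% of wildtype, and -0.67 (SE 0.17) in Cy3, or 62.8% of wildtype, and -0.57 without the library labelled heterozygous replicate 3. Its groups did not overlap in either dye. Of the 23852 probes with values in all samples, 6.41% had both heterozygous below both wildtype samples in each dye, and 2 of the 5 SV2 probes did.

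The upstream 2128 probe read Sv2c near background. It was not well above background in any Cy3 sample, where its unnormalized intensities of 270 to 319 lay near the negative controls. In Cy5 it was well above background but dim, with normalized wildtype values of 7.56 and 7.58 and heterozygous values of 7.40 and 7.41. The Cy5 difference was -0.16 (SE 0.13). Intensity before normalization was higher in the heterozygous Cy5 samples, at 176 and 163 against 137 and 151, the opposite order to that of the normalized values.

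**Figure D2:**
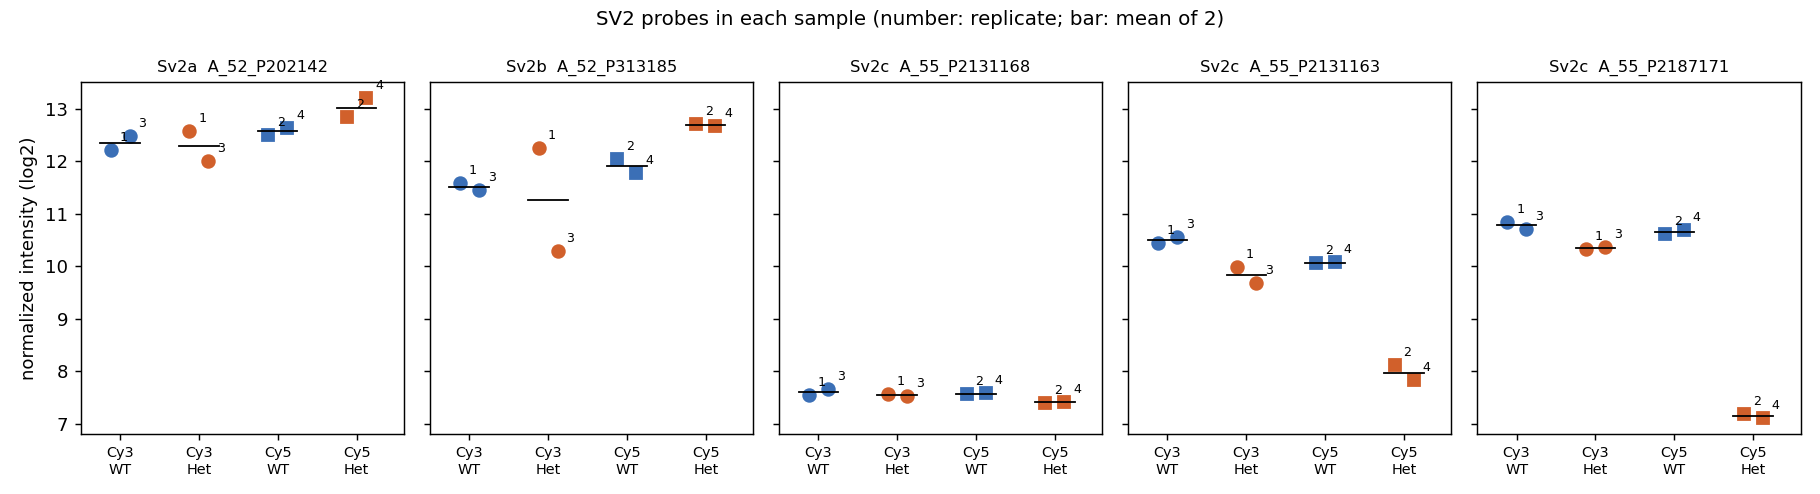
Normalized intensity (vertical axis, log2) of the 5 SV2 probes in each of the 8 samples, by dye and genotype (WT blue, Het orange; circles Cy3, squares Cy5; numbers are replicates; bars are means of 2 samples). The 3806 and 4136 probes of Sv2c (A_55_P2131163 and A_55_P2187171) stand at 7.83 to 8.11 and 7.11 to 7.19 in the heterozygous Cy5 samples, and the library labelled heterozygous replicate 3 is lowest for Sv2a and Sv2b.

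Averaged over both dyes, as the study's design has it, the 4136 probe measured 10.71 in wildtype and 8.75 in heterozygous samples, a difference of -1.96 (SE 0.55, n = 4 per genotype). The 3806 probe averaged 10.28 and 8.90, a difference of -1.38 (SE 0.28, n = 4 per genotype). Without the library labelled heterozygous replicate 3 these differences were -2.32 and -1.49. The averaged difference of the 4136 probe describes none of the samples closely: heterozygous replicates 1 and 3 lay at -0.45 and -0.41 from the wildtype mean of their dye, and replicates 2 and 4 at -3.46 and -3.53. For the 3806 probe these values were -0.52, -0.83, -1.96 and -2.24 in replicates 1, 3, 2 and 4.

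Over the whole array, limma called 1 of 25325 probes for genotype over both dyes at an adjusted p under 0.05 (0.00395%), and it was none of the 5 SV2 probes. That probe belonged to Btbd9, named after its value was seen, with a difference of 1.82 (SE 0.14, limma adjusted p = 0.0343). Within Cy5 alone 1 of 25260 probes was called (0.00396%), and within Cy3 0 of 25307 (0%), where 1818 had an unadjusted p under 0.05. The Cy5 count, and the like count of 1 of 25242 for the difference between the dyes (0.00396%), came from the contrast that chose the family and are given as background only. Over both dyes, 0 probes were called with any 1 sample left out, except that 1 was called without the library labelled heterozygous replicate 3. The Cy5 difference of the 4136 probe stayed between -3.54 and -3.45 whichever sample was left out. It was the lowest of all 25260 probes, and that of the 3806 probe ranked 5 from the bottom. This contrast chose the family, so both ranks are a description only. The probes ranked between these 2 Sv2c probes were looked up afterwards. They were Rn18s, a ribosomal RNA, at -3.44 (SE 1.11), the small nuclear RNA gene Rnu1b6 at -2.68 (SE 0.84) and the pituitary hormone gene Prl at -2.43 (SE 1.91). These had larger SEs than the Sv2c probes, and the wildtype Cy5 samples themselves differed in Prl, with 11.86 and 7.35.

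**Figure D3:**
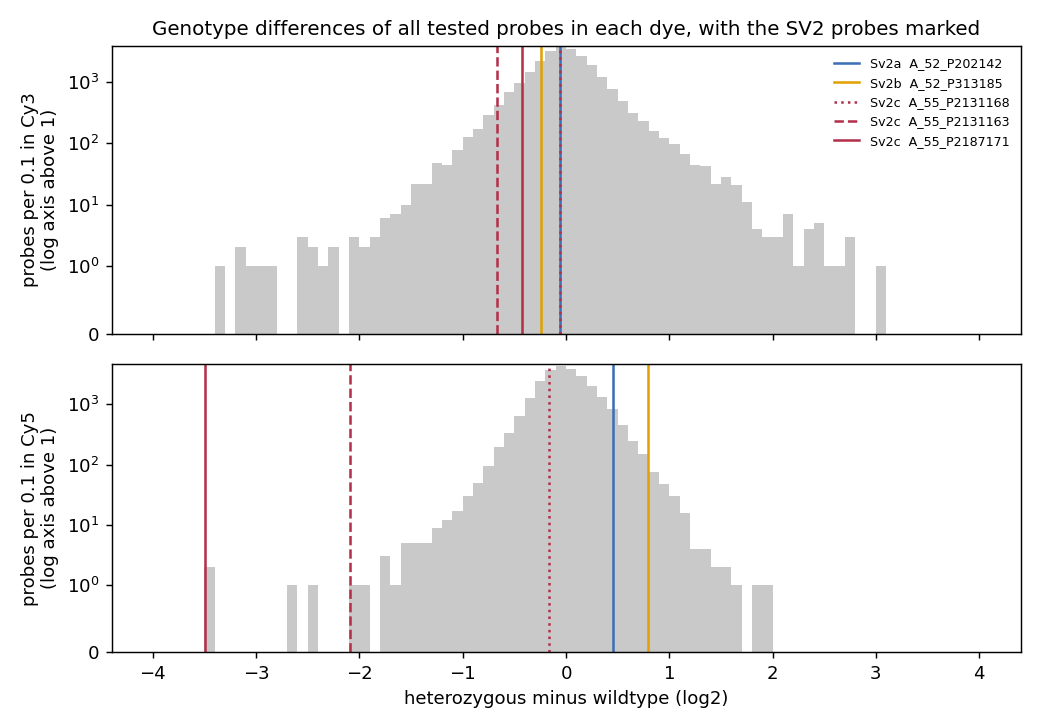
Number of tested probes (vertical axis, log above 1) by genotype difference (horizontal axis, heterozygous minus wildtype, log2, bins of 0.1) in Cy3 (top) and Cy5 (bottom), with the 5 SV2 probes as vertical lines. The 4136 and 3806 probes of Sv2c lie at -3.49 and -2.10 in Cy5, at the far left, and at -0.43 and -0.67 in Cy3.

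Genes beside Sv2c on chromosome 13 had small Cy5 differences. Within 500 kb of the Sv2c probes, a window chosen after the Sv2c values were seen, 4 other probes were tested, and their Cy5 differences lay between -0.37 and 0.47. They were -0.37 for F2r, a thrombin receptor gene, 0.47 for Iqgap2, a cytoskeletal scaffold gene, and -0.17 for Poc5, a centriole protein gene. The 1 remaining probe carried no gene symbol.

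Sv2a, the family member of most neurons, stood close to wildtype in Cy3 and higher in Cy5. It measured 12.21 and 12.48 in wildtype and 12.58 and 12.002 in heterozygous replicates 1 and 3 in Cy3, where the genotypes overlapped. In Cy5 it measured 12.49 and 12.64 in wildtype and 12.84 and 13.20 in heterozygous replicates 2 and 4, without overlap. That separation was shared by 20.1% of all probes. The difference was -0.05 (SE 0.24) in Cy3 and 0.45 (SE 0.24) in Cy5. The Cy3 value was 0.30 without the library labelled heterozygous replicate 3, 0.09 without wildtype replicate 3 and -0.41 without heterozygous replicate 1. The Cy5 value was 0.15 without heterozygous replicate 4 and 0.75 without heterozygous replicate 2. Over both dyes the means were 12.46 ± 0.19 in wildtype and 12.66 ± 0.31 in heterozygous samples (SD after removal of the dye effect, n = 4), and the difference was 0.20 (SE 0.18). Leaving out heterozygous replicate 4 gave 0.01, and leaving out the library labelled heterozygous replicate 3 gave 0.38.

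Sv2b, the member of forebrain glutamatergic neurons among others, was higher in 3 of the 4 heterozygous samples and lower in the fourth. In Cy5 it measured 12.05 and 11.77 in wildtype and 12.72 and 12.68 in heterozygous replicates 2 and 4. In Cy3 it measured 11.58 and 11.45 in wildtype, 12.24 in heterozygous replicate 1 and 10.29 in the library labelled heterozygous replicate 3. That library held the lowest of the 8 values, and the other 3 heterozygous samples lay above both wildtype samples of their dye, by 0.73 to 0.81 over the wildtype mean. The difference was 0.79 (SE 0.55) in Cy5 and -0.25 (SE 0.55) in Cy3. The Cy3 value became -1.21 without heterozygous replicate 1 and 0.72 when the library labelled heterozygous replicate 3 was omitted. The Cy5 value became 0.40 without heterozygous replicate 4. Over both dyes the means were 11.71 ± 0.32 and 11.98 ± 0.85 (SD, n = 4). These SDs too were taken after subtraction of the dye mean over both genotypes and were widened by a difference that varied by dye. Wildtype values lay at -0.14 to 0.14 from the wildtype mean of their dye. The difference over both dyes of 0.27 (SE 0.40) became 0.76 without the library labelled heterozygous replicate 3. It was -0.04 without heterozygous replicate 1 and -0.03 without heterozygous replicate 4.

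Counts over the 5 SV2 probes are set beside the array's own shares as a description, since the contrast chose the family. Both heterozygous samples lay below both wildtype samples for 2 SV2 probes in Cy3 (18% of all probes) and for 3 in Cy5 (24.6%). They lay above for 0 in Cy3 (14.2%) and for 2, Sv2a and Sv2b, in Cy5 (20.1%). No SV2 probe was above in each dye, a pattern of 4.23% of all probes. All 4 heterozygous values lay below all 4 wildtype values for the 3806 and 4136 probes (2.92%) and above them for 0 (1.9%). A difference below -1 was held by 2 SV2 probes in Cy5 (0.249%) and 0 in Cy3 (1.03%). A difference above 0.5 was held by 1, Sv2b, in Cy5 (4.07%) and by 0 in Cy3 (6.67%).

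**Figure D4:**
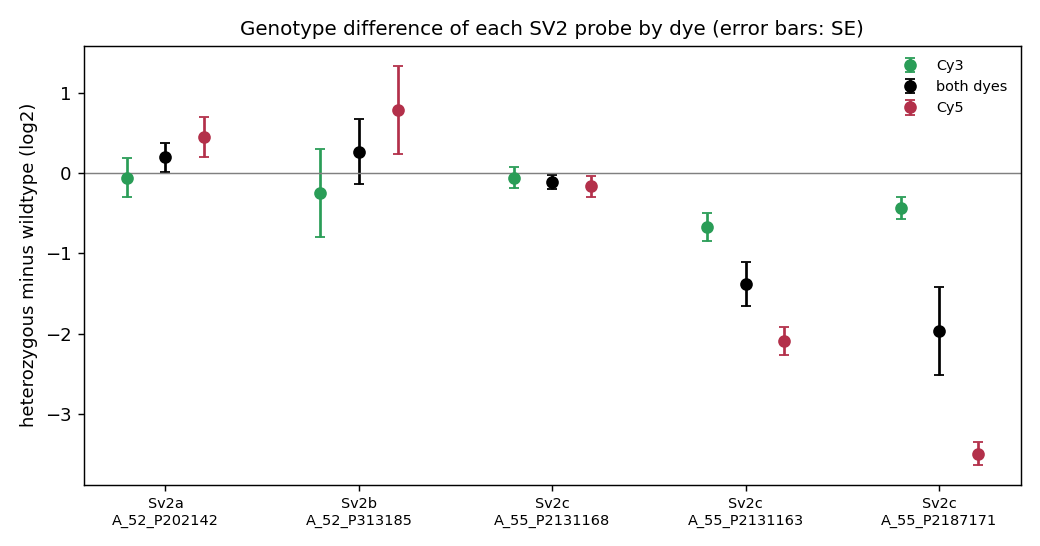
Genotype difference (vertical axis, heterozygous minus wildtype, log2) of each SV2 probe in Cy3 (green), over both dyes (black) and in Cy5 (red), with SEs of the limma fit as error bars. The 3806 and 4136 probes of Sv2c are below 0 in each dye, at -0.67 and -0.43 in Cy3 and -2.10 and -3.49 in Cy5, while Sv2a and Sv2b lie above 0 in Cy5 and at -0.05 and -0.25 in Cy3.

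Within the same Cy5 samples the Sv2c probes thus lay below wildtype and the Sv2a probe above it. In Cy5 both heterozygous samples lay below both wildtype samples in 24.6% of all probes and above them in 20.1%. The Sv2a difference there was 0.45 (SE 0.24). In heterozygous replicate 4, Sv2a lay 0.63 and Sv2b 0.77 above the wildtype mean of the dye, while the 4136 probe of Sv2c lay at -3.53 from it. In heterozygous replicate 2 these values were 0.27, 0.81 and -3.46. In the library labelled heterozygous replicate 3 all 3 genes lay below, at -0.34 for Sv2a, -1.22 for Sv2b and -0.41 for the 4136 probe.

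Genes with the most similar profiles were sought among 14847 named genes by Pearson's r over the 8 samples after removal of the dye effect, as a description. For Sv2a they were Brf1, a subunit of the RNA polymerase III initiation factor, Capn7, a calpain protease gene, and Trmt12, a tRNA modification gene, with r of 0.99, 0.98 and 0.98. For Sv2b they were Atp6v1g2, a subunit of the proton pump that acidifies vesicles, Fam234b and 1700097N02Rik, with r of 0.99 each. Atp6v1g2 had the same low value in the library labelled heterozygous replicate 3, at 10.74 against 11.70 to 12.99 in the other samples. For the 4136 probe of Sv2c they were Fam118a, Pmepa1, a membrane protein gene of TGF-beta signalling, and DXBay18, with r of 0.99, 0.98 and 0.98. Those r rest mainly on the Cy5 samples. Subtraction of the dye mean over both genotypes set the 2 heterozygous ones below 0 and the 2 wildtype ones above it. The Cy5 differences of the 3 genes were -0.40, -0.56 and -0.67, far smaller than that of the 4136 probe.

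The wider vesicle machinery was read from 6 lists, with the brightest probe for each gene. None of their tested members passed limma's threshold in either direction over both dyes, beside 0.00395% of all probes, and the median over all probes was -0.02. SV2 relatives and trafficking partners had a median difference of 0.07 over 10 members, 5 with a positive difference, and 0.15 without the library labelled heterozygous replicate 3. Leaving out other single samples gave 0.0058 (wildtype replicate 1) at the lowest. Among them Svop, which encodes the nearest relative of the SV2 proteins, differed by 0.15 (SE 0.14) and Syt1, the main calcium sensor of release and a binding partner of SV2, by 0.16 (SE 0.18, 3 samples per genotype). The adaptor subunits Ap2a1 and Ap2s1, which take part in vesicle retrieval, had the largest differences of that list, at 0.25 (SE 0.13) and 0.25 (SE 0.26, 3 wildtype samples).

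Vesicle membrane proteins had a median of 0.13 over 19 fitted members, 15 of them positive, and Cplx1 could not be fitted. Leaving out heterozygous replicate 4 gave -0.015, and leaving out the library labelled heterozygous replicate 3 gave 0.24. The vesicle SNARE gene Vamp1 differed by 1.45 (SE 0.28, 3 wildtype samples) and Syp, which encodes synaptophysin, by 1.12 (SE 0.53, 3 wildtype samples). Vamp2, the main vesicle SNARE gene of the forebrain, differed by 0.38 (SE 0.15). Synaptotagmins had a median of -0.03 over 13 members, which ranged from -0.03 to 0.12 with 1 sample left out (0.015 when this was the library labelled heterozygous replicate 3), with Syt13 at 1.13 (SE 0.27) and Syt17, well above background in 4 of the 8 samples, at 0.62 (SE 0.22).

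Vesicular transmitter transporters had a median of 0.32 over 7 members. It was 0.21 without the library labelled heterozygous replicate 3, 0.15 without wildtype replicate 3, 0.59 without wildtype replicate 2 and 0.56 without heterozygous replicate 2. The vesicular glutamate transporter genes Slc17a7 and Slc17a6 differed by 2.15 (SE 0.40) and 1.14 (SE 0.23), each well above background in 6 of the 8 samples, and Slc32a1, the vesicular GABA transporter gene, by 0.32 (SE 0.28, 3 wildtype samples). Subunits of the vesicle proton pump had a median of 0.11 over 14 members, 0.39 in Cy5 and -0.09 in Cy3. Omitting the library labelled heterozygous replicate 3 gave a median of 0.35, and it was -0.035 without heterozygous replicate 4 and -0.020 without wildtype replicate 4. Atp6v0b and Atp6v0a1 had the largest differences there, at 0.71 (SE 0.33, 3 wildtype samples) and 0.28 (SE 0.16). The plasma membrane fusion machinery had a median of 0.09 over 10 members, 0.19 without the library labelled heterozygous replicate 3 and 0.016 to 0.11 without any other sample, with the syntaxin gene Stx1a at 1.10 (SE 0.25) and the priming factor gene Unc13c at -0.58 (SE 0.39). The lowest Cy5 difference in these lists was -0.85, for the vesicle protein gene Synpr. That of the 3806 probe of Sv2c was lower, but it came from the contrast that chose the family.

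Markers of neuronal and other cell types were set beside these values for each heterozygous sample, relative to the wildtype mean of the same dye. Striatal projection neurons are the principal cells of the striatum, and all 12 of their markers had a negative difference over both dyes. Their mean level was 0.01, -0.73 and -0.13 in heterozygous replicates 1, 2 and 4 and -1.16 in the library labelled heterozygous replicate 3, and ranged from -0.08 to 0.09 over the wildtype samples. Ppp1r1b, which encodes DARPP-32 of these neurons, measured 16.72 and 16.67 in the wildtype Cy5 samples and 16.04 and 16.63 in heterozygous replicates 2 and 4. All 10 markers of cortical excitatory neurons had a positive difference. Their mean level was 1.93, 1.17, 1.09 and 0.30 in heterozygous replicates 1, 3, 2 and 4, and -0.41 to 0.41 in wildtype. The dopamine receptor gene Drd1 of projection neurons differed by -0.53 (SE 0.34) over both dyes.

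The 6 cholinergic interneuron markers had mean levels of -0.29, 0.02, -0.63 and -0.11 in heterozygous replicates 1, 3, 2 and 4, with -0.11 to 0.11 in wildtype. The acetylcholine synthesis gene Chat measured 10.23 and 10.05 in wildtype and 9.53 and 9.79 in heterozygous Cy5 samples. The 5 tested markers of midbrain dopamine neurons, from which Slc6a3 was missing as too dim, had levels of 0.57, 0.24, -0.21 and -0.31, with -0.09 to 0.09 in wildtype. Among them Nr4a2, named after its value was seen, had a Cy3 difference of 2.71, and the other 4 lay between -0.59 and 0.11 in Cy3. The dopamine synthesis gene Th differed by -0.16 in Cy5 and -0.25 in Cy3. The 5 tested pallidal markers had levels of 0.37, 0.84, 0.44 and 0.02, with -0.24 to 0.24 in wildtype. Over both dyes 2 of them had a positive difference and 3 a negative one, with a median of -0.01. Pvalb was among the positive ones, at 1.58 (SE 0.65). It measured 10.91 to 13.72 in the other samples and reached 15.10 in the library labelled heterozygous replicate 3. Thalamic and choroid plexus markers were highest in that library, at 1.38 and 1.84, where Sv2b was lowest. The choroid plexus gene Ttr measured 16.29 there and 11.52 to 14.15 elsewhere. The myelin gene Mbp differed by -0.57 (SE 0.15) over both dyes. The part of cell composition in the SV2 values was not tested.

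**Figure D5:**
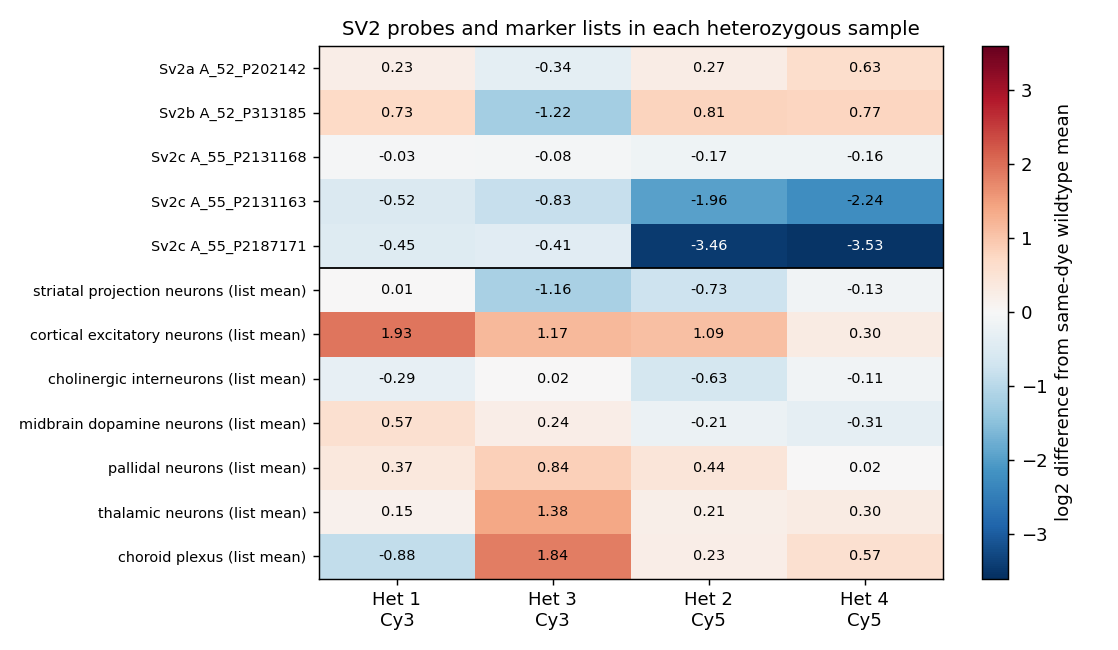
Level of each SV2 probe and mean level of 7 marker lists (rows) in each heterozygous sample (columns, grouped by dye), as the log2 difference from the mean of the 2 wildtype samples of the same dye (colour and number). The 4136 and 3806 probes of Sv2c reach -3.53 and -2.24 in replicate 4, where the projection neuron list stands at -0.13.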

How the data were processed

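Striatal RNA of 8 samples, 2 differently dyed samples of 1 genotype on each of 4 arrays of 1 slide, was read with Agilent Feature Extraction 10.7.3.1, per the file headers. The deposited scanner files hold spot intensity on a linear scale. The deposited value table holds ratio values, which matched each spot's background-subtracted median intensity divided by 1 constant per sample, with a median of 1 in every column, for all listed spots (tolerance 1e-04). Control and outlier spots were left out. Background was corrected by normexp (offset 50), followed by loess within arrays and Aquantile between them. Probes well above background in at least 4 samples were tested, 25338 of 39429. limma 3.58.1 (R 4.3.3, statmod 1.5.0) fitted genotype with dye as covariate and array as random block, and genotype within each dye, with Benjamini-Hochberg adjustment over all probes and a threshold of 0.05. Symbols were updated from RefSeq, by accession for 27234 probes and by symbol for 4141. No p is given for an SV2 probe. The members and lists were chosen with earlier results of these data known. Named genes were the SV2 probes, Brd2, a fixed set of vesicle and cell type genes, the 2 largest differences of each list and the 3 profiles most like each SV2 gene. The scripts were tested on simulated data. Array number and signal over background limit the precision.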

Additional observations from a re-analysis of the deposited data

Results flagged for a closer look

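The upstream 2128 probe of Sv2c had 1 wildtype sample standing away from the other 3 once the dye effect was removed. The gap to the nearest other sample was 0.834 of the group's range, just above the critical value of Dixon's test. Normalized values, before that removal, were 7.55, 7.56, 7.66 and 7.58 in wildtype replicates 1, 2, 3 and 4. After it, replicate 1 was the sample standing apart, on the low side. The probe was not well above background in that Cy3 sample. Such a test marks some groups by chance, and 1 of the 20 sets of values examined was marked.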

How the results depend on the processing

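The 3806 and 4136 probes of Sv2c kept a negative difference under every setting run, in each dye and over both. The 4136 probe ranged from -4.38 to -3.32 in Cy5. Over both dyes it was -2.13 with local background subtracted, -2.23 with processed signals, -2.08 with the deposited value table, -1.79 with loess alone and -2.07 with a normexp offset of 16. In Cy5 it was -3.34 without background subtraction, -3.57 with local background subtracted, -4.38 with processed signals, -3.77 with the value table, -3.32 with loess alone, -3.41 with quantile scaling and -3.74 with an offset of 16. In Cy3 it was -0.69 without background subtraction, -0.69 with local background subtracted, -0.081 with processed signals and -0.26 with loess alone. The 3806 probe was -2.54 in Cy5 and -0.48 in Cy3 with processed signals, and -1.91, -0.48 and -1.19 in Cy5, Cy3 and both dyes with loess alone. The 2128 probe was 0.093 in Cy3 and -0.37 in Cy5 with the value table, -0.10 in Cy3 with local background subtracted and -0.0060 with median spot intensity, and -0.12, -0.0054 and -0.060 in Cy5, Cy3 and both dyes with loess alone. Sv2a in Cy3 was -0.41 with the value table and 0.075 with loess alone, which shifted the median of all probes by 0.11. The causes were not tested.

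Leaving out 1 sample at a time gave -2.32 to -1.53 over both dyes, -3.54 to -3.45 in Cy5 and -0.49 to -0.37 in Cy3 for the 4136 probe. It gave -1.58 to -1.17, -2.17 to -2.02 and -0.78 to -0.57 for the 3806 probe, and -0.14 to -0.09, -0.18 to -0.15 and -0.11 to -0.0017 for the 2128 probe. For Sv2a it gave 0.01 to 0.38, 0.15 to 0.75 and -0.41 to 0.30, and for Sv2b -0.04 to 0.76, 0.40 to 1.18 and -1.21 to 0.72. Sv2b was -0.042 without heterozygous replicate 1 and -0.035 without heterozygous replicate 4. The probes called numbered 0 to 1 over both dyes, 0 to 1368 in Cy3 and 0 to 1 in Cy5. The Cy3 count was 1368 without heterozygous replicate 1 and 272 with the library labelled heterozygous replicate 3 omitted, and 0 otherwise. Each such fit left 1 sample in an arm, assumed to vary like the other groups, so these counts say little. The Cy5 count was 0 without wildtype replicate 2, wildtype replicate 4 or heterozygous replicate 4.

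Over both dyes, 0 probes were called with the value table, loess alone, no filter on dim probes or the brightest probe per gene, and 2 at an adjusted p under 0.10. In Cy5, 0 were called with loess alone, and 2 at an adjusted p under 0.10 or among probes well above background in all 8 samples. Deviations of same-numbered samples correlated at 0.17, -0.30, -0.19 and -0.26. Such samples share a dye, and subtraction of dye and genotype means by itself lowers these correlations. They therefore cannot decide whether replicate numbers pair samples. With the replicate block 0 probes were called and the SV2 differences stayed at 0.20, 0.27, -0.11, -1.38 and -1.96. Dim signal in Cy3 limits the 2128 probe, and 2 samples per dye and genotype limit all values.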
